A study of Homo sapiens with 8 samples.

Results

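The genes described here serve protein folding in the endoplasmic reticulum and the disposal of proteins that fail to fold, a route called endoplasmic reticulum-associated degradation (ERAD). They were taken from a list of 42 gene symbols, and 40 of them had a row in the deposited table, of 17492 genes in all. HSP90B1 and SEC61G had no row under those symbols and were not analysed here. The 40 genes were grouped by role into 11 folding chaperones and co-chaperones, 6 disulfide isomerases and oxidases, 6 sensors and transcription factors, 4 translocon genes and 13 ERAD genes. The RNA came from tumours that SkMel147, an established human melanoma cell line, formed as subcutaneous growths in BALB/c nude mice, which lack mature T cells. One group of 4 mice drank doxycycline, which induces Omomyc in the tumour cells, and the other group of 4 drank the vehicle. Omomyc, derived from the dimerisation domain of MYC, competes with MYC for partners and DNA. Treatment began at a tumour volume of 100 mm3 and ended after 7 days, when each tumour was taken for 1 Affymetrix array. The sources used here give neither the ages of the mice, nor the promoter that drives Omomyc, nor the number of clones in the line. No group received doxycycline without the transgene, so effects of the drug and of Omomyc cannot be told apart. The labels also leave unsaid whether vehicle tumours carry the inducible construct, so induction and presence of the transgene cannot be told apart from them.

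Proteins that enter the secretory pathway pass through the SEC61 channel into the endoplasmic reticulum, where the chaperone HSPA5 (BiP), the lectins CALR and CANX and the disulfide isomerases fold them. When unfolded proteins build up, the membrane sensors ERN1 (IRE1), EIF2AK3 (PERK) and ATF6 start the unfolded protein response, which raises chaperone and ERAD genes and lowers translation. In ERAD, lectins such as OS9 hand a misfolded glycoprotein to SEL1L and the ubiquitin ligase SYVN1 (HRD1), around which the derlins and HERPUD1 assemble, and the protein leaves for the proteasome. The response has been studied in melanoma because tumour cells make proteins at a high rate and often grow with little oxygen or glucose.

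Values are log2 expression from RMA, which brings the arrays to similar distributions, and the array medians of the 17492 genes lay between 5.04 and 5.15. A difference of 1 on this scale is a doubling. Fold changes are doxycycline minus vehicle on that scale, tested with limma over all genes, and a gene is said to have risen or fallen, or to be called, at a Benjamini-Hochberg adjusted p under 0.05. The level of MYC, part of which the transgene carries, was 5.92, 5.42, 5.92 and 5.26 in the vehicle tumours and 5.49, 7.22, 7.74 and 6.78 in the doxycycline tumours (replicates 1 to 4, as in every such list). It lay above every vehicle tumour in 3 of the 4 and was not called (difference 1.18 ± 0.41, SE; limma adjusted p = 0.0987), so the labels are checked only in part. Vehicle replicate 2 and doxycycline replicate 4 had higher lower quartiles (3.21 and 3.24, against 3.05 to 3.13 elsewhere), and vehicle replicate 2 and doxycycline replicate 1 had the lowest array weights (0.502 and 0.728). Members whose calls are lost without them are given with both values. Of 11 measured melanocyte genes, the lineage regulator SOX10 was at 6.53 ± 0.26 with vehicle and 6.25 ± 0.28 with doxycycline (SD, n = 4), while the pigment genes PMEL, MLANA and TYR lay between 2.13 and 3.26 in both group means, so the pigment markers of the labelled melanoma were near the low end of the array's values. RAB38 was at 7.47 ± 0.23 and 6.87 ± 0.26, and MIA rose by 1.51 ± 0.42 (SE; limma adjusted p = 0.0445), a call lost without vehicle replicate 1, 2 or 3 or doxycycline replicate 1, 2 or 3 (limma adjusted p = 0.0716 to 0.126). The labels call the replicates biological, and the tumours are taken as separate.

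Of the 9 called genes, 6 belong to ERAD. OS9, SEL1L, SYVN1, HERPUD1 and DERL1 rose by 1.62-fold to 2.01-fold, and UBE2J1, an ERAD ubiquitin-conjugating enzyme, was 1.85-fold lower. Outside ERAD, the sensor homologue ATF6B and the co-chaperone DNAJC10 rose and the oxidase ERO1A fell. In total 7 of the 40 genes rose and 2 fell, or 22.5%, where 10.8% of all genes tested were called. Upward calls made up 17.5% of the members against 4.75% of all genes, and 6.03% of all genes were called downward. The share of all genes includes dim ones. Without the dimmest 40% of genes, 12 of 39 members and 10.2% of all genes were called upward. The members were chosen with earlier results of these data known, so these shares only describe them. Without regard to the test, all 4 doxycycline tumours lay above all 4 vehicle tumours for 16 of the 40 genes and below them for 2, where 8.86% and 8.83% of all genes did so. Median fold changes were 0.61 for the 13 ERAD members, 0.31 for chaperones, 0.21 for sensors, 0.21 for the translocon and -0.18 for disulfide enzymes. That of all genes was 0.04. The mean of ribosomal protein genes was itself 11.36, 11.31, 11.28 and 11.17 in vehicle and 11.01, 11.13, 10.88 and 11.20 in doxycycline tumours. A zero set by these genes therefore moves in part with the groups. When they set the zero of each array, the median of all genes moves to 0.27 and that of the members to 0.51. With this zero 14 members rose and 0 fell, while the share of all genes called higher went from 4.75% to 9.51%. HSPA5, DNAJB9, CRELD2, DERL2, EDEM2, EDEM3 and SELENOS joined the 7 in that setting, and ERO1A and UBE2J1 lost their calls (limma adjusted p = 0.0668 and 0.0537). In bulk tumours, fewer cells of a type and less RNA per cell cannot be told apart.

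**Figure D1:**
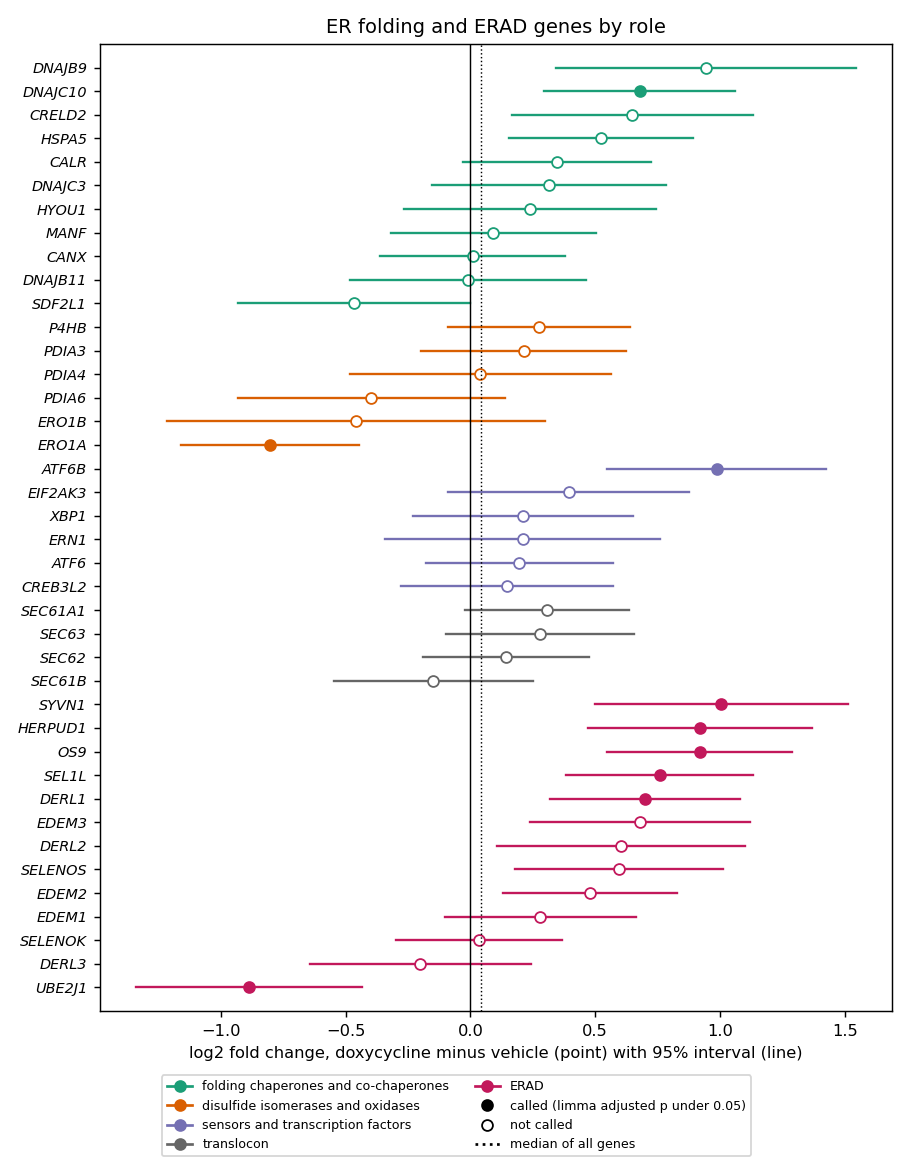
Log2 fold change of each of the 40 genes (point) with its 95% interval from limma (line), coloured by role, filled where the gene was called. The ERAD genes reach from UBE2J1 at -0.89 to SYVN1 at 1.01, and 11 of the 13 lie to the right of 0.

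The promoters of the called genes are shown because the members move in part together and the response acts through known DNA elements. Windows of 250 bases before to 50 after the annotated start were available from RefSeq (GRCh38.p14) for 37 of the 40 measured genes, 8 of the 9 called ones among them. Both strands were searched for the endoplasmic reticulum stress element (ERSE: CCAAT, 9 bases of any kind, then CCACG), the core of the unfolded protein response element (TGACGTGG) and the E-box (CACGTG) of MYC and its partners. The CCACG of the ERSE may share bases with either of the others. Below are the bases before the start, 5′ to 3′ on the gene's strand, with matches in capitals: 250 bases for HSPA5 and for called genes with a match, and 60 for called genes without one. HSPA5 (chr9:125241344-125241593, minus strand) is included as the classical target of the ERSE. The others are DNAJC10 (chr2:182716007-182716256, plus), ATF6B (chr6:32128247-32128496, minus), HERPUD1 (chr16:56931892-56932141, plus), UBE2J1 (chr6:89352723-89352972, minus), ERO1A (chr14:52695559-52695618, minus), SEL1L (chr14:81533854-81533913, minus), SYVN1 (chr11:65134520-65134579, minus) and OS9 (chr12:57694072-57694131, plus).
HSPA5: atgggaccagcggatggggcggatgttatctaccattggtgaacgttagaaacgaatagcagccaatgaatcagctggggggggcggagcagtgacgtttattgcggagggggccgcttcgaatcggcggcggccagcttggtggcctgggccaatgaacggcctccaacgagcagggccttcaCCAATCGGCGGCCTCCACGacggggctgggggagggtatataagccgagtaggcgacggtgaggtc
DNAJC10: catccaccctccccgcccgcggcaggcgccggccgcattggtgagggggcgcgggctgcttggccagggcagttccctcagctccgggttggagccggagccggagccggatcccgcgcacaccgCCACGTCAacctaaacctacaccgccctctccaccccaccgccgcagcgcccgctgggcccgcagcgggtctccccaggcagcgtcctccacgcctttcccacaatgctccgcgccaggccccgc
ATF6B: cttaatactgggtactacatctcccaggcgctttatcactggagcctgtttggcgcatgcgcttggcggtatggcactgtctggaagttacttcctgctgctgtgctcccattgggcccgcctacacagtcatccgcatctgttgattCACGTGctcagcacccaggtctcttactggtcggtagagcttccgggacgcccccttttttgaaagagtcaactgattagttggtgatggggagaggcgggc
HERPUD1: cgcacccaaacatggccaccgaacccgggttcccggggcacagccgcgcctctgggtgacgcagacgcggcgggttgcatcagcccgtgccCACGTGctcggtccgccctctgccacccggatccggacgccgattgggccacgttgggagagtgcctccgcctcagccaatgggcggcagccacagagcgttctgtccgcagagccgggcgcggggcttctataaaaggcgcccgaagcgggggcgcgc
UBE2J1: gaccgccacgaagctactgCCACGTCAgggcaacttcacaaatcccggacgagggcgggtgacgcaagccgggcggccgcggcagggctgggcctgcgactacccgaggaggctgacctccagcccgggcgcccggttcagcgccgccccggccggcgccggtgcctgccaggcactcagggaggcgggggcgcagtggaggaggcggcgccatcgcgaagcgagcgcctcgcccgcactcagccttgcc
ERO1A: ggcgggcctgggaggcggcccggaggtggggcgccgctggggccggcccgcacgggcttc
SEL1L: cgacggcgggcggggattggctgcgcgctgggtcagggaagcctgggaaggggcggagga
SYVN1: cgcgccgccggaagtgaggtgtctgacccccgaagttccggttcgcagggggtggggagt
OS9: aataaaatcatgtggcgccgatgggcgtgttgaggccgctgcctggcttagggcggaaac
The ERSE was found in windows of 7 of the 37 genes, namely HSPA5, CALR, CANX, CRELD2, PDIA6, ERO1B and XBP1. Of all 27305 genes with a window, 0.0916% had it. None of those 7 genes was called, where 10.8% of all genes were, and HSPA5 and CRELD2 among them had groups that did not overlap. The ERSE in this exact form was in 0 of the 8 windows of called genes. Related forms of the stress elements, and matches with a mismatch, were not searched, so these windows may hold others. The core of the unfolded protein response element was in DNAJC10, HYOU1, SEC62 and UBE2J1 (0.927% of all genes with a window). The called pair among them moved in opposite directions. The E-box was in ATF6B, CANX, DNAJB9, HERPUD1 and SELENOS (8.77% of all genes with a window). In HERPUD1 and ATF6B it began 159 and 102 bases before the start. A match is a description of these letters and not a site shown to be bound.

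OS9 is the lectin that reads trimmed glycans on misfolded proteins. It was at 8.95, 9.24, 9.02 and 9.38 in vehicle and at 10.05, 9.95, 10.14 and 10.14 in doxycycline tumours. The groups did not overlap, and the SD of the doxycycline tumours was 0.09. OS9 rose by 0.92 ± 0.17 (SE), or 1.89-fold (limma adjusted p = 0.00584), and stayed called in all 18 alternative fits.

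SEL1L, the adaptor that links such lectins to the ligase, was at 8.75, 8.62, 8.48 and 8.81 in vehicle and at 9.48, 9.34, 9.24 and 9.64 in doxycycline tumours. All doxycycline values were higher, and SEL1L rose by 0.76 ± 0.17 (SE; limma adjusted p = 0.0163). The call ended without vehicle replicate 3 (0.70, adjusted p = 0.0548), and without vehicle replicate 2 together with doxycycline replicate 4 or 1 (limma adjusted p = 0.0646 and 0.0552). SYVN1, the ubiquitin ligase at the centre of the complex, was at 7.63, 7.47, 7.89 and 7.54 in vehicle and at 8.38, 8.65, 9.25 and 8.28 in doxycycline tumours. Its highest doxycycline value was replicate 3, and its lowest still exceeded every vehicle value. SYVN1 rose by 1.01 ± 0.23 (SE), or 2.01-fold (limma adjusted p = 0.0182), and kept its call in the 18 alternatives, the closest being without vehicle replicate 1 (adjusted p = 0.049999).

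HERPUD1, a membrane scaffold of the ligase complex that the unfolded protein response induces, was at 7.78, 7.50, 7.88 and 7.83 in vehicle and at 9.06, 8.53, 8.79 and 8.28 in doxycycline tumours. The groups were apart, with doxycycline replicate 1 highest. HERPUD1 rose by 0.92 ± 0.20 (SE; limma adjusted p = 0.0154), and the call ended without vehicle replicate 2 and doxycycline replicate 1 together (0.71, adjusted p = 0.0580). Among the derlins, which help draw proteins back across the membrane, DERL1 was at 7.39, 7.54, 7.61 and 7.40 in vehicle and at 8.06, 7.94, 8.34 and 8.38 in doxycycline tumours. Its groups did not overlap and it rose by 0.70 ± 0.17 (SE; limma adjusted p = 0.0258). The call was lost without vehicle replicate 1, 3 or 4 or doxycycline replicate 3 or 4 (limma adjusted p = 0.0755, 0.0503, 0.0687, 0.0725 and 0.0655), and without vehicle replicate 2 and doxycycline replicate 4 together (0.0787). DERL2, at 0.61 ± 0.23 (SE), and DERL3, at -0.20 ± 0.20 (SE), were not called (limma adjusted p = 0.123 and 0.615).

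UBE2J1, the ERAD ubiquitin-conjugating enzyme, went the other way. It was at 8.98, 8.79, 8.85 and 8.79 in vehicle and at 8.33, 7.91, 7.47 and 8.15 in doxycycline tumours. Every doxycycline tumour was lower, replicate 3 most of all. UBE2J1 fell by 0.89 ± 0.21 (SE; limma adjusted p = 0.0194), and the call ended without vehicle replicate 1 or 3 or doxycycline replicate 2 (limma adjusted p = 0.0602, 0.0530 and 0.0529).

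The mannosidase-like EDEM proteins, which trim glycans and so mark proteins for disposal, were not called. EDEM3 was at 7.16, 6.64, 6.78 and 7.33 in vehicle and at 7.63, 7.45, 7.79 and 7.76 in doxycycline tumours, and the groups did not overlap. Its difference of 0.68 ± 0.20 (SE) missed the threshold (limma adjusted p = 0.0543) and passed in 6 of the 18 alternatives. These were quantile normalization, array medians or ribosomal protein genes as zero, no dim genes, a trended and robust prior, and leaving out vehicle replicate 4 (limma adjusted p = 0.0475, 0.0367, 0.0244, 0.0275, 0.0220 and 0.0415). EDEM2, at 0.48 ± 0.16 (SE), also had groups that did not overlap (limma adjusted p = 0.0848), and EDEM1, at 0.28 ± 0.17 (SE), had overlapping groups. SELENOS, a selenoprotein that recruits the VCP segregase to the derlins, was at 6.55, 6.95, 6.49 and 6.67 in vehicle and at 7.24, 7.12, 7.08 and 7.61 in doxycycline tumours. All doxycycline values were higher, and the difference of 0.60 ± 0.19 (SE) was not called (limma adjusted p = 0.0735). SELENOS was called without vehicle replicate 2, with array weights, with a trended and robust prior, without the dimmest genes and with the ribosomal zero (limma adjusted p = 0.0485, 0.0413, 0.0413, 0.0364 and 0.0189). SELENOK, its partner selenoprotein, was at 0.03 ± 0.15 (SE), with a 95% interval of -0.30 to 0.37.

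**Figure D2:**
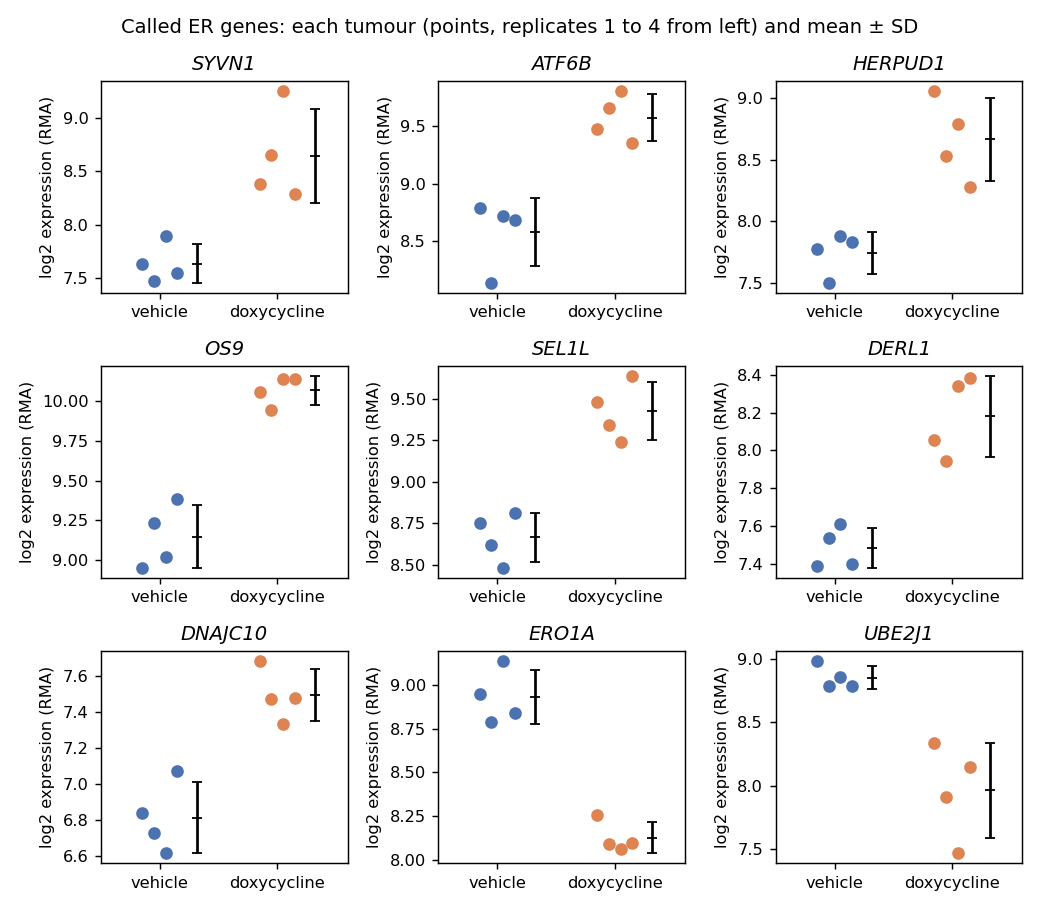
Log2 expression of the 9 called genes in each tumour (points, replicates 1 to 4 from left to right) with the group mean and SD beside them. For every gene the 4 doxycycline tumours lie on one side of the 4 vehicle tumours, below them for ERO1A and UBE2J1 and above them for the other 7.

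Of the 11 chaperones and co-chaperones, DNAJC10 alone was called (9.09%, where 10.8% of all genes were). DNAJC10 (ERdj5) is a reductase that opens disulfide bonds of proteins bound for ERAD, and so sits between the folding and disposal roles. It was at 6.84, 6.73, 6.62 and 7.07 in vehicle and at 7.68, 7.47, 7.33 and 7.48 in doxycycline tumours, without overlap. It rose by 0.68 ± 0.17 (SE; limma adjusted p = 0.0300). The call was one of the least stable, being lost without vehicle replicate 1, 2 or 3 or doxycycline replicate 1, 2 or 4 (limma adjusted p = 0.0714, 0.0562, 0.0898, 0.0710, 0.0685 and 0.0594), and without vehicle replicate 2 together with doxycycline replicate 4 or 1 (0.0905 and 0.103).

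HSPA5, the master chaperone and usual gauge of the unfolded protein response, was at 10.35, 10.47, 10.31 and 10.44 in vehicle and at 10.72, 10.93, 11.18 and 10.84 in doxycycline tumours. Every doxycycline tumour was higher, but the difference of 0.52 ± 0.17 (SE), with a 95% interval of 0.16 to 0.89, was not called (limma adjusted p = 0.0746). It was called with array weights, a trended and robust prior, the dimmest genes left out, or the ribosomal zero (limma adjusted p = 0.0413, 0.00673, 0.0333 and 0.0337). DNAJB9 (ERdj4), a co-chaperone induced through XBP1, was at 6.72, 7.88, 7.70 and 7.68 in vehicle and at 8.27, 8.07, 8.72 and 8.70 in doxycycline tumours. Vehicle replicate 1 was low, and the groups did not overlap. The difference of 0.94 ± 0.27 (SE) was not called (limma adjusted p = 0.0511). DNAJB9 was called without vehicle replicate 2, with array weights, with a trended and robust prior, without the dimmest genes and with the ribosomal zero (limma adjusted p = 0.0442, 0.0399, 0.0175, 0.0301 and 0.0238). CRELD2, an isomerase-like protein of the stress response, was at 5.96, 5.33, 5.85 and 5.96 in vehicle and at 6.43, 6.42, 6.81 and 6.04 in doxycycline tumours, also without overlap, and at 0.65 ± 0.22 (SE) was not called (limma adjusted p = 0.0908).

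The remaining chaperones had overlapping groups and were not called. The lectin chaperones CALR and CANX differed by 0.35 ± 0.17 and 0.01 ± 0.17 (SE), the nucleotide exchange factor HYOU1 by 0.24 ± 0.23 (SE) and the co-chaperone DNAJC3, an inhibitor of EIF2AK3, by 0.31 ± 0.21 (SE). For CANX the 95% interval of -0.36 to 0.38 leaves out a doubling. MANF, a secreted stress protein, was at 0.09 ± 0.19 (SE) and the co-chaperone DNAJB11 at -0.01 ± 0.21 (SE). SDF2L1, which works with DNAJB11, had the lowest value of the role, at -0.47 ± 0.21 (SE; limma adjusted p = 0.209). Per tumour, the mean of the 11 genes was 8.08 to 8.36 in vehicle and 8.40 to 8.71 in doxycycline tumours.

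Among the 6 disulfide enzymes, ERO1A fell and none rose (16.7% called, where 10.8% of all genes were). ERO1A, the oxidase that recharges the isomerases and a gene known to be induced by low oxygen, was at 8.95, 8.79, 9.14 and 8.84 in vehicle and at 8.26, 8.09, 8.06 and 8.10 in doxycycline tumours. Doxycycline values were tightly grouped and all lower. ERO1A fell by 0.80 ± 0.16 (SE), or was 1.75-fold lower (limma adjusted p = 0.00968). Of 18 alternatives, the ribosomal zero was the one that ended the call, at -0.58.

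ERO1B, the second oxidase, was at 4.21, 4.20, 3.92 and 4.35 in vehicle and at 3.12, 3.29, 4.90 and 3.53 in doxycycline tumours. Doxycycline replicate 3 was above every vehicle tumour and the other doxycycline tumours were below all of them. Over all arrays ERO1B was at -0.46 ± 0.34 (SE) and not called (limma adjusted p = 0.477), and without doxycycline replicate 3 it was called at -0.86 (adjusted p = 0.0283). The isomerases PDIA3, PDIA4, PDIA6 and P4HB, which form and reshuffle disulfide bonds, were not called, at 0.21 ± 0.19, 0.04 ± 0.24, -0.40 ± 0.24 and 0.28 ± 0.17 (SE). Of these, P4HB was higher in every doxycycline tumour than in any vehicle tumour (9.27 to 9.70 against 9.08 to 9.17).

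Of the 6 sensors and transcription factors, ATF6B was called (16.7%, where 10.8% of all genes were). ATF6B is the homologue of ATF6, is cut from the membrane in the same way and is a weaker activator. It was at 8.79, 8.14, 8.72 and 8.69 in vehicle and at 9.47, 9.66, 9.80 and 9.35 in doxycycline tumours. The groups were apart although vehicle replicate 2 was low. ATF6B rose by 0.99 ± 0.20 (SE), or 1.98-fold (limma adjusted p = 0.0100), and stayed called in all 18 alternatives, at 0.84 without vehicle replicate 2.

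None of the 3 main sensors was called. ATF6 was at 0.20 ± 0.17 (SE), with a 95% interval of -0.18 to 0.57. EIF2AK3, the kinase that lowers translation, was at 6.73, 6.67, 6.70 and 7.38 in vehicle and at 6.94, 7.54, 7.40 and 7.17 in doxycycline tumours, and its groups overlapped through vehicle replicate 4 (0.39 ± 0.22, SE; limma adjusted p = 0.316). ERN1, the kinase and nuclease that splices XBP1, was at 0.21 ± 0.25 (SE), with doxycycline replicate 1 highest at 6.64. XBP1, whose splicing an array of this kind does not show as deposited, was at 0.21 ± 0.20 (SE) and CREB3L2, a membrane-bound factor for secretory genes, at 0.15 ± 0.19 (SE). All 6 differences were above 0.

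None of the 4 translocon genes was called, where 10.8% of all genes were. SEC61A1, the channel itself, was at 8.54, 8.62, 8.58 and 8.64 in vehicle and at 8.88, 8.96, 8.85 and 8.92 in doxycycline tumours. These groups were tight and apart, yet SEC61A1 was not called at 0.31 ± 0.15 (SE; limma adjusted p = 0.246), where limma draws a gene's spread toward that of all genes. SEC62 and SEC63, which assist entry after translation, were at 0.14 ± 0.15 and 0.28 ± 0.17 (SE), and the small channel subunit SEC61B at -0.15 ± 0.18 (SE).

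**Figure D3:**
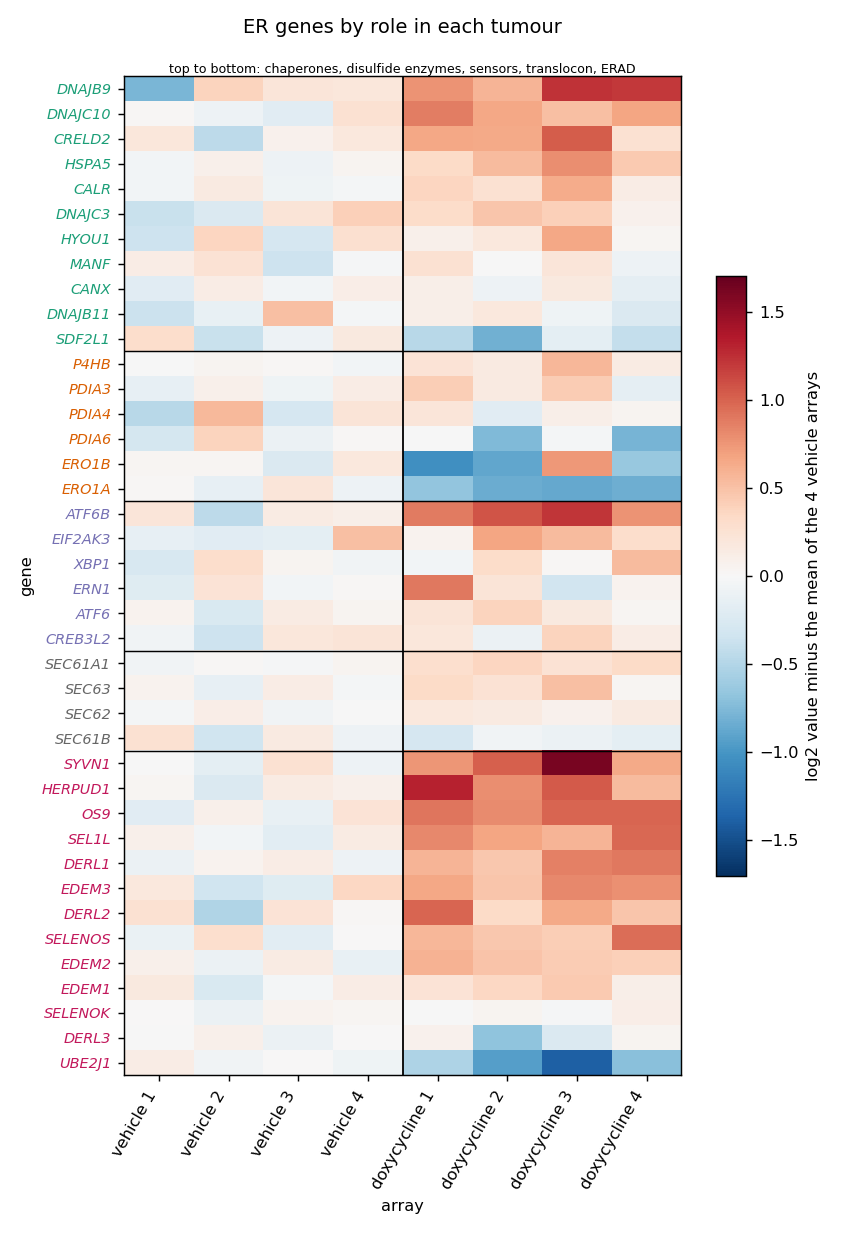
Log2 value of each gene in each tumour minus the gene's vehicle mean, with genes by role and ordered by fold change within it. The upper ERAD genes are above their vehicle mean in all 4 doxycycline tumours, while rows of the disulfide enzymes and the translocon differ in sign.

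Whether close relatives changed unequally was tested in 10 pairs chosen after the values were seen, by an exact two-sided permutation test of their within-array difference over the 4 and 4 tumours. No pair passed after adjustment, which the design allowed only if at least 6 pairs had reached the smallest p. The difference in change was 0.79 for ATF6B minus ATF6, 0.90 and 0.81 for DERL1 and DERL2 minus DERL3, and -1.09 for UBE2J1 minus UBE2J2 (exact p = 0.0286 each, the smallest possible, and 0.0714 adjusted over the 10 pairs). DERL1 and DERL2 differed in change by 0.09 (exact p = 0.714), and ERO1A and ERO1B by -0.35 (exact p = 0.629).

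Other genes of the same compartment were taken from 10 lists of 162 genes in all, 148 of them measured. Of these, 23 rose and 3 fell (15.5% upward, against 4.75% of all genes), with a median of 0.20. The lists were chosen with earlier results of these data known, so this share only describes them. Upward calls fell mostly in the lists for glycan handling, translocon partners, other folding enzymes and export. None was in the list for signal recognition and signal peptidase (0 of 13) or in the list of other ERAD genes. Of the latter, 2 of 23 fell (8.70%, against 6.03% of all genes). The median of those 23 was 0.04, against 0.61 for the 13 ERAD members.

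Glycans are added by the oligosaccharyltransferase and then trimmed as a folding check. In the first list 3 of 11 rose, with the subunits RPN2 at 0.88 ± 0.19 and DDOST at 0.74 ± 0.16 (SE; limma adjusted p = 0.0138 and 0.0158), and DDOST lost its call without vehicle replicate 3 (adjusted p = 0.0518). In the trimming list 4 of 10 rose. MOGS, the glucosidase that removes the first glucose, rose by 1.19 ± 0.21 (SE; limma adjusted p = 0.00412). ERLEC1, a lectin that like OS9 serves SEL1L, rose by 0.70 ± 0.17 (SE; limma adjusted p = 0.0214). Its call was lost without vehicle replicate 1 or 4 or doxycycline replicate 1 or 2 (limma adjusted p = 0.0657, 0.0540, 0.0518 and 0.0526).

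Of 11 translocon-associated genes 4 rose, with TRAM2, which assists collagen entry, at 1.48 ± 0.23 (SE) and the translocon-associated subunit SSR4 at 1.02 ± 0.19 (SE; limma adjusted p = 0.00248 and 0.00680). Of 22 other folding enzymes 6 rose and 1 fell. GPX8, a peroxidase of the compartment, and SERPINH1, the collagen chaperone HSP47, rose by 1.02 ± 0.16 and 1.20 ± 0.26 (SE; limma adjusted p = 0.00208 and 0.0133). TXNDC5, an isomerase, fell by 0.78 ± 0.18 (SE; limma adjusted p = 0.0210), a call lost without vehicle replicate 4 or doxycycline replicate 2 or 3 (limma adjusted p = 0.0505, 0.0635 and 0.0558) and with the ribosomal zero (-0.55, adjusted p = 0.0945).

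In COPII export, which carries folded cargo to the Golgi, 3 of 14 rose. SEC24D, a cargo adaptor, rose by 0.94 ± 0.18 and SEC24C by 0.66 ± 0.15 (SE; limma adjusted p = 0.00773 and 0.0205), the latter not without vehicle replicate 3 or 4 or doxycycline replicate 2 or 3 (limma adjusted p = 0.0540, 0.0594, 0.0617 and 0.0506). Of 18 other genes of the unfolded protein response only CREB3L1 was called (5.56%, where 10.8% of all genes were). CREB3L1 (OASIS), a membrane-bound factor cut like ATF6 and known for collagen secretion, was at 4.40, 3.33, 2.95 and 3.30 in vehicle and at 6.09, 5.80, 6.07 and 6.45 in doxycycline tumours. It rose by 2.61 ± 0.30 on the log2 scale (SE; limma adjusted p = 0.000334). No fold is given, since 3 of the vehicle values lie near the low end of the array and signal over background is unknown. None of the other 17, among them ATF4, DDIT3 and the phosphatase subunit PPP1R15A, was called.

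The 2 genes that fell among other ERAD genes were ERLIN1, a membrane scaffold for ligase complexes, by 1.07 ± 0.23, and the rhomboid protease RHBDD1 by 0.86 ± 0.22 (SE; limma adjusted p = 0.0133 and 0.0286). The call of RHBDD1 was lost without vehicle replicate 1, 3 or 4 or doxycycline replicate 3 or 4 (limma adjusted p = 0.0794, 0.0510, 0.0789, 0.0786 and 0.0677) and with the ribosomal zero (-0.64, adjusted p = 0.100). In the list for insertion of tail-anchored and multi-pass proteins 1 of 16 rose (6.25%, against 4.75% of all genes). This was the membrane complex subunit EMC7 (0.76 ± 0.17, SE; limma adjusted p = 0.0187). EMC7 was not called without vehicle replicate 3 or doxycycline replicate 4 (limma adjusted p = 0.0603 and 0.0502). In the list for turnover of the compartment by autophagy and UFM1 tagging 1 of 10 rose (10%, against 4.75% of all genes). This was the receptor CALCOCO1 (0.81 ± 0.18, SE; limma adjusted p = 0.0182). It was not called without vehicle replicate 1 or 3 or doxycycline replicate 2 or 3 (limma adjusted p = 0.0560, 0.0603, 0.0510 and 0.0549). Without vehicle replicate 2 and doxycycline replicate 4 together, ERLEC1, EMC7, SEC24C and RHBDD1 were not called (limma adjusted p = 0.0509, 0.0589, 0.0595 and 0.0815). Without vehicle replicate 2 and doxycycline replicate 1, ERLEC1 and TXNDC5 were not (limma adjusted p = 0.0773 and 0.0564).

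**Figure D4:**
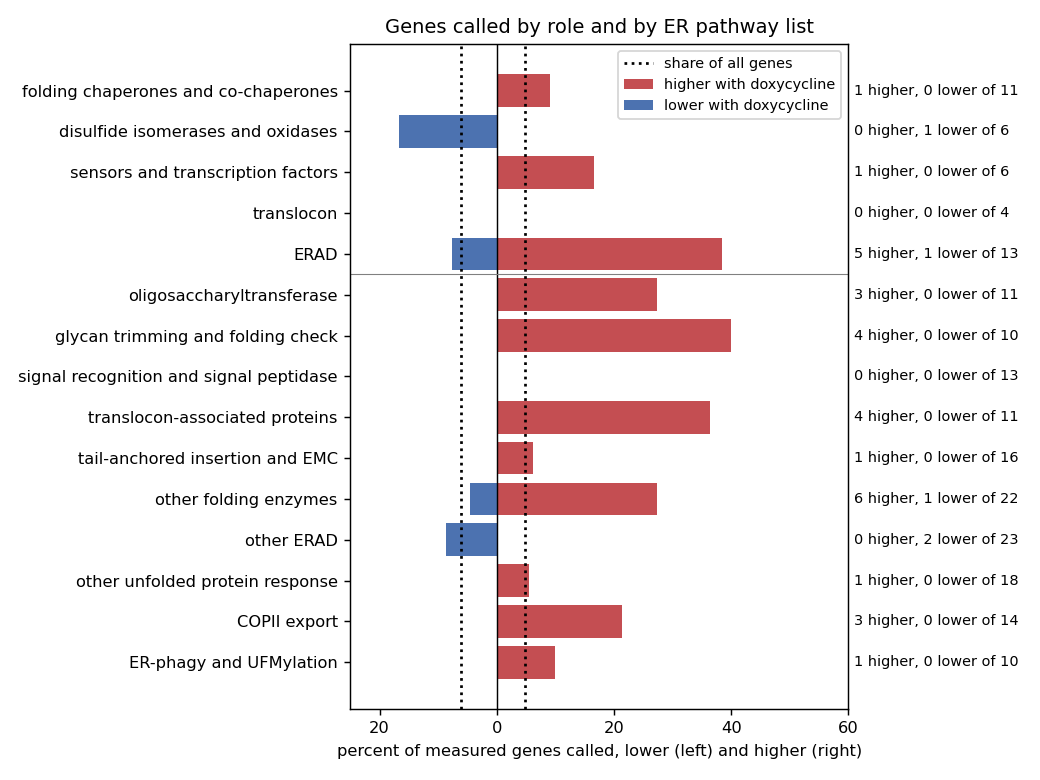
Percent of the measured genes of each role and list that were called higher (right) or lower (left) with doxycycline, with the counts at the right and the shares of all genes as dotted lines (4.75% higher and 6.03% lower). The ERAD members, glycan trimming and translocon-associated genes have the longest upward bars, at 38.5%, 40% and 36.4%, and the other ERAD genes have none.

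Markers of other cell types were read beside these results, on an array made for human sequences. Host cells in these tumours are mouse cells. RNA of the human tumour cells and any mouse RNA that the probes bind cannot be told apart. The values therefore do not measure the presence or absence of host cells. Of 7 measured fibroblast markers, all were higher on average and 3 were called (COL1A1 by 1.25 ± 0.28, COL1A2 by 0.92 ± 0.21 and PDGFRA by 2.51 ± 0.56, SE; limma adjusted p = 0.0150, 0.0183 and 0.0158). The calls of COL1A2, without vehicle replicate 3 or doxycycline replicate 3, and PDGFRA, without vehicle replicate 1, were lost (limma adjusted p = 0.0564, 0.0509 and 0.0520). Without vehicle replicate 2 and doxycycline replicate 1 together COL1A1, COL1A2 and PDGFRA were all uncalled (limma adjusted p = 0.0642, 0.0790 and 0.0755), and without vehicle replicate 2 and doxycycline replicate 4 COL1A2 and PDGFRA were (0.0869 and 0.0735). The mean of the 7 was 5.52 to 6.64 in vehicle and 7.02 to 8.10 in doxycycline tumours, with LUM and FAP at 8.55 ± 0.73 and 8.84 ± 0.82 (SD, n = 4) under doxycycline, and their part in the changes of the secretory genes was not tested. No marker of macrophages (0 of 12), T and NK cells (0 of 9), B and plasma cells (0 of 8), endothelium (0 of 8) or keratinocytes (0 of 6) was called. The macrophage mean was 3.51 to 3.80 in vehicle and 3.80 to 4.41 in doxycycline tumours, with CD68 at 8.15 ± 0.26 and 8.98 ± 0.69 (SD, n = 4) and TYROBP at 5.07 ± 0.60 and 4.89 ± 0.37 (SD, n = 4). Of the 12 macrophage differences 9 were above 0, the largest being CD14 at 1.82 ± 0.52 (SE; limma adjusted p = 0.0507), and FCGR3A had groups apart (0.74 ± 0.22, SE; limma adjusted p = 0.0612), these markers being named after their values were seen. The part of macrophages was not tested either. Plasma cells are rich in this compartment, and their markers JCHAIN, MZB1 and TNFRSF17 lay between 1.44 and 3.13 in both group means, while SDC1, which other cells share, was at 7.60 ± 0.29 and 7.67 ± 0.36 (SD, n = 4) and CD79A at 5.25 ± 0.56 and 5.74 ± 0.46 (SD, n = 4). In vehicle tumours NKG7 and CD7 were at 5.34 and 5.52, PECAM1 and VWF at 5.41 and 4.72, and KRT5 and KRT14 at 3.68 and 3.07. In doxycycline tumours NKG7 and CD7 were at 4.98 and 5.57, PECAM1 and VWF at 4.88 and 4.86, and KRT5 and KRT14 at 4.03 and 3.38. Of the 8 endothelial differences 5 were above 0 and 3 below. For 2 of these 8 markers all doxycycline tumours lay above all vehicle tumours, as for 8.86% of all genes.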

How the data were processed

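Per the labels, total RNA of 8 tumours was hybridised to 1 array each, and per the submitters' processing notes RMA gave the deposited log2 values. The sources used here name no software version or filter, and no scanner values were used, so signal over background is unknown and the number of arrays limits the precision. Of 18569 rows, 17511 had 1 symbol, 0 had several and 1058 had none. For 17 genes with more than 1 row, none a member, the row of highest mean was kept.

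Groups come from the titles. Doxycycline was compared with vehicle over all 17492 genes using limma 3.58.1 (lmFit, eBayes) in R 4.3.3, two-sided, Benjamini-Hochberg adjusted, with no filter. SE is limma's moderated standard error. Members and lists were chosen with earlier results of these data known. Text names all members, up to 2 called genes per direction of each pathway list, the 2 markers of highest mean per marker list, and the called markers. Some genes were named outside this rule. Among them are SOX10, PMEL, MLANA, TYR, CD14, FCGR3A, JCHAIN, MZB1, TNFRSF17, ATF4, DDIT3, PPP1R15A and UBE2J2. The procedure was tested on simulated data. Alternatives were a replicate block, array weights, quantile normalization, array medians or 45 ribosomal protein genes as zero, no genes from the dimmest 40%, eBayes with trend and robust settings, the mean of a gene's rows, and leaving out arrays singly or in 2 pairs. Promoters come from RefSeq. Figures were drawn in Python 3.11.15.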

Additional observations from a re-analysis of the deposited data

Results flagged for a closer look

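In 3 of 80 groups of 4 tumours (40 genes in each group), 1 tumour stood far from the other 3, with a gap above Dixon's critical value for 4 samples, where chance gives about 1 in 20 groups. DNAJB9 was lowest in vehicle replicate 1, at 6.72, with the next tumour at 7.68. Without that tumour its difference of 0.94 was 0.69 (limma adjusted p = 0.102). ATF6B was lowest in vehicle replicate 2, at 8.14, with the next at 8.69, and stayed called without it. EIF2AK3 was highest in vehicle replicate 4, at 7.38, with the next at 6.73. Without it the difference of 0.39 was 0.56 and not called (limma adjusted p = 0.135).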

How the results depend on the processing

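The main count of 9 called members was 14 with ribosomal protein genes as zero, where 13.4% of all genes were called, against 10.8% in the main setting. It was also 14 without the dimmest genes, where 39 members were tested and 21.3% of all genes were called. It was 5 to 10 with 1 tumour left out, and 6 without vehicle replicate 2 and doxycycline replicate 4, or vehicle replicate 2 and doxycycline replicate 1, together. Over all genes 1884 were called, and 1252 to 1760 with 1 tumour left out. The ribosomal zero also lowered the share of calls that fell from 55.9% to 29.2%, and moved the medians of chaperones, sensors, translocon and ERAD genes to 0.54, 0.44, 0.44 and 0.83. That of disulfide enzymes turned to 0.049 there, 0.039 without the dimmest genes, which removed ERO1B, and 0.040 without vehicle replicate 2 and doxycycline replicate 4. With 1 tumour left out the medians were 0.19 to 0.39 (chaperones), -0.28 to -0.02 (disulfide enzymes), 0.18 to 0.31 (sensors), 0.18 to 0.22 (translocon) and 0.57 to 0.70 (ERAD).

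Signs of uncalled members near 0 turned in places. CANX was at -0.056 with quantile normalization and between -0.057 and 0.065 with 1 tumour left out. DNAJB11 was at 0.018 with array medians as zero, 0.22 with the ribosomal zero, 0.026 without vehicle replicate 2 and doxycycline replicate 4, and -0.13 to 0.16 with 1 tumour left out. Left-out ranges were -0.026 to 0.17 for MANF, -0.12 to 0.22 for PDIA4 and -0.018 to 0.39 for ERN1. SEC61B and DERL3 were at 0.078 and 0.027 with the ribosomal zero, and SELENOK at -0.025 without vehicle replicate 2 and doxycycline replicate 4. The cause was not tested.

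Same-numbered tumours did not deviate together (correlations of -0.05, -0.15, 0.03 and -0.16). The labels do not say whether the numbers pair the tumours, and these correlations cannot settle it. With the replicate block 7 members were called, all among the 9, and DNAJC10 and DERL1 were not (limma adjusted p = 0.0813 and 0.0796). Over all genes 502 were called higher and 791 lower with the block. Among the named list genes, the block ended the calls of RPN2, DDOST, ERLEC1 and EMC7 (limma adjusted p = 0.0529, 0.0653, 0.0799 and 0.0533). TXNDC5, RHBDD1, SEC24C and CALCOCO1 lost theirs too (limma adjusted p = 0.0737, 0.0696, 0.0852 and 0.0708), as did the melanocyte marker MIA (0.0965).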
